A study of Mus musculus with 4 samples.

Results

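The comparison of fetal mouse pancreatic epithelium at E18.5, just before birth, with E15.5 (E, embryonic day) was examined over every gene that reached 1 FPKM at either stage. FPKM is the number of fragments per kilobase of exon, scaled by a denominator for each library. The rule left 13275 of the 54532 Ensembl gene IDs, of which 11300 are protein-coding. At both stages 11054 members reached 1 FPKM, 1299 did so at E18.5 only and 922 at E15.5 only. Both groups were total RNA of wild-type (WT) C57BL/6 fetal pancreas, with no treatment in the labels, and differed in embryonic stage. E11.5 and E13.5 samples of the same strain and genotype gave earlier levels. The labels name 1 sample per stage, and its values are the authors' averages. The series text calls the material epithelium, while neither its isolation nor the number of embryos pooled is stated in the sources used here.

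The pancreas is built from an epithelium whose tips become acinar cells and whose trunk gives ducts and endocrine cells. Acinar cells make digestive enzymes under a complex that contains PTF1A and RBPJL. Endocrine cells arise from trunk cells that briefly express the transcription factor NEUROG3, and mature into alpha, beta, delta, PP and epsilon cells, named for the hormones glucagon, insulin, somatostatin, pancreatic polypeptide and ghrelin. The interval from E15.5 to birth is known for enzyme accumulation, islet formation and a slowing of growth.

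Each deposited mean could be split, for most genes, into whole reads of 2 libraries. A value after ± is the SD of these recovered libraries (n = 2). Levels without ± could not be split at that stage or are given without their SD. Genes that could not be split at both stages had no test. The estimated reads per library were 1.58e+07 and 1.37e+07 for the E15.5 sample, and 1.45e+07 and 1.44e+07 for the E18.5 sample. Whether the libraries represent separate embryos is not stated, so every SD and limma p-value reflects the spread of 2 libraries, which may be technical. The ratio of Y-linked to Xist reads was 0.138 and 0.151 in the E15.5 libraries, and 2.73 and 2.95 in the E18.5 libraries. The libraries of a stage were thus alike in this ratio, which follows the sex of the embryos, and the stages were not. The part of this in the results was not tested. When the libraries of 1 stage were set against each other, 33 of 5818 genes (0.567%) in the E15.5 pair and 22 of 6169 (0.357%) in the E18.5 pair stood 2-fold or more apart. All levels below are scaled FPKM, and differences are E18.5 minus E15.5 on the log2(scaled FPKM + 1) scale, where the change of low genes is understated.

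Somatostatin, ribonuclease, pancreatic polypeptide and osteopontin transcripts stood far higher at E18.5, and corticosteroid-binding globulin, H19 and the ribosomal protein genes stood lower. A rule of size took genes with a 2-fold or larger difference whose higher value was 5 FPKM or more. By this rule 933 members were higher at E18.5 (7.03% of members) and 823 were lower (6.2%). The higher genes made up 53.1% of these calls, and 67.3% when both samples were set to the same total FPKM, which moved the median of all members from 0.04 to 0.18. At a fold of 4 or more, 230 were higher and 100 lower, and at 16 or more 13 were higher and 3 lower. The rule has a soft edge, with 272 members at a difference of 1.0 to 1.1 in size and 284 at 0.9 to 1.0. Of the 933 higher genes, 764 had their highest level of the 4 stages at E18.5 and 151 at E11.5. Neural and erythroid marker genes also summed far higher at E11.5 than at the later stages. The part of other tissues in the 151 was not tested. Of the 823 lower genes, 677 were highest at E15.5. Because the rule compares E15.5 with E18.5, no higher gene could be highest at E15.5 and no lower gene at E18.5. The 764 and 677 thus rest in part on the values that selected the genes. Shares over all members are not given beside them, so these counts alone show no tendency to peak at either stage. On the recovered libraries of 11489 members, limma with Benjamini-Hochberg adjustment at 0.05 called 4395 genes that rose (38.3%) and 3670 that fell (31.9%), at any fold, or 70.2% of those tested. Of the 761 higher and 619 lower genes that could be split at both stages, limma called 760 and 612 in the same direction. These calls rest on the same values and are no independent support. The limma counts of each list below stand beside the 38.3% and 31.9% of all tested members.

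**Figure D1:**
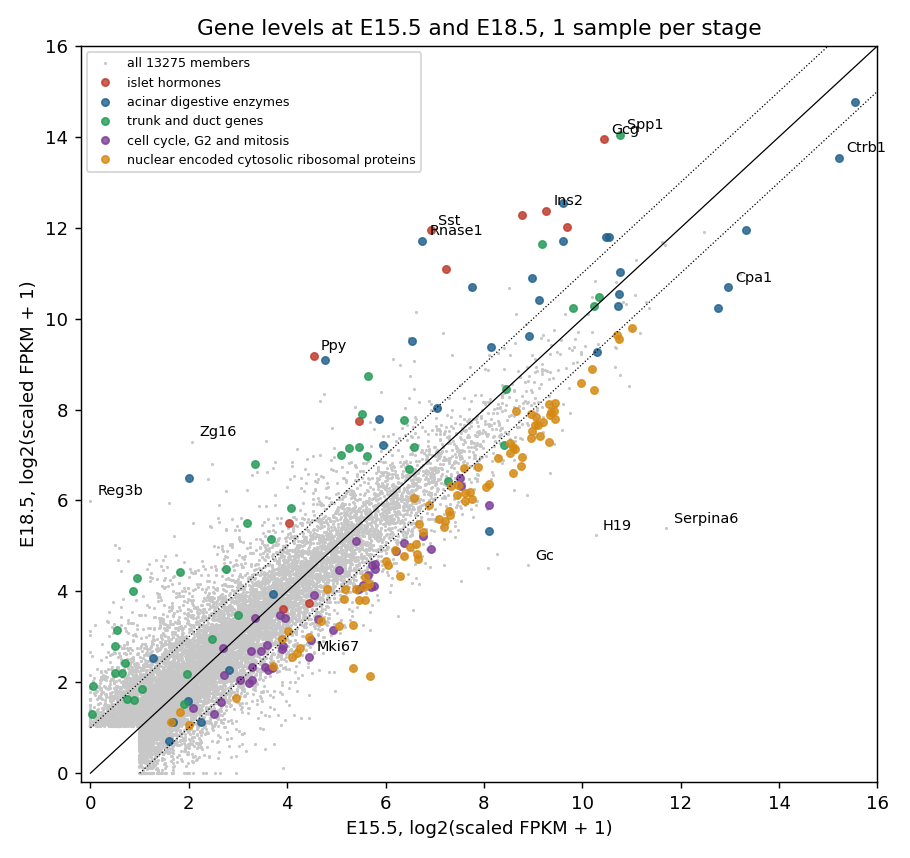
Scaled FPKM of all 13275 members at E15.5 (x axis) and E18.5 (y axis), both as log2(scaled FPKM + 1), with 5 gene lists in colour, the line of equality and dotted lines at a difference of 1. Islet hormones lie above the upper dotted line with 2 exceptions, and ribosomal protein genes lie below equality in 84 of 84 members.

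The 6 marker genes set the frame. Ins2, the second insulin gene (ENSMUSG00000000215, chromosome 7, 142678656 to 142743381, mm10), was at 614 and 5323 FPKM at E15.5 and E18.5. Sst, which encodes somatostatin (ENSMUSG00000004366, chromosome 16, 23889573 to 23890958), was at 120.3 ± 1.74 and 3938, a 32.7-fold higher level. Spp1, which encodes the secreted duct protein osteopontin (ENSMUSG00000029304, chromosome 5, 104435118 to 104441050), was at 1741 and 16964, and Rnase1, a pancreatic ribonuclease (ENSMUSG00000035896, chromosome 14, 51144998 to 51146785), at 106 ± 10.5 and 3369. Serpina6, corticosteroid-binding globulin (ENSMUSG00000060807, chromosome 12, 103646630 to 103657212), went the other way, from 3347 to 40.9 ± 1.40, 81.9-fold lower. Mki67, which encodes the Ki-67 antigen of dividing cells (ENSMUSG00000031004, chromosome 7, 135689784 to 135716361), fell from 20.7 ± 0.129 to 4.91 ± 0.614 (limma log2 difference -1.88, SE 0.0835, adjusted p = 9.35e-05). For Mki67 the libraries of the stages did not overlap, with 20.7 and 20.8 in the E15.5 pair against 4.48 and 5.34. Among all genes past the rule that could be split at both stages, this was so for 761 of 761 higher and 617 of 619 lower ones. In these bulk samples more cells of a type and more RNA per cell cannot be told apart, for these and all genes below.

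**Figure D2:**
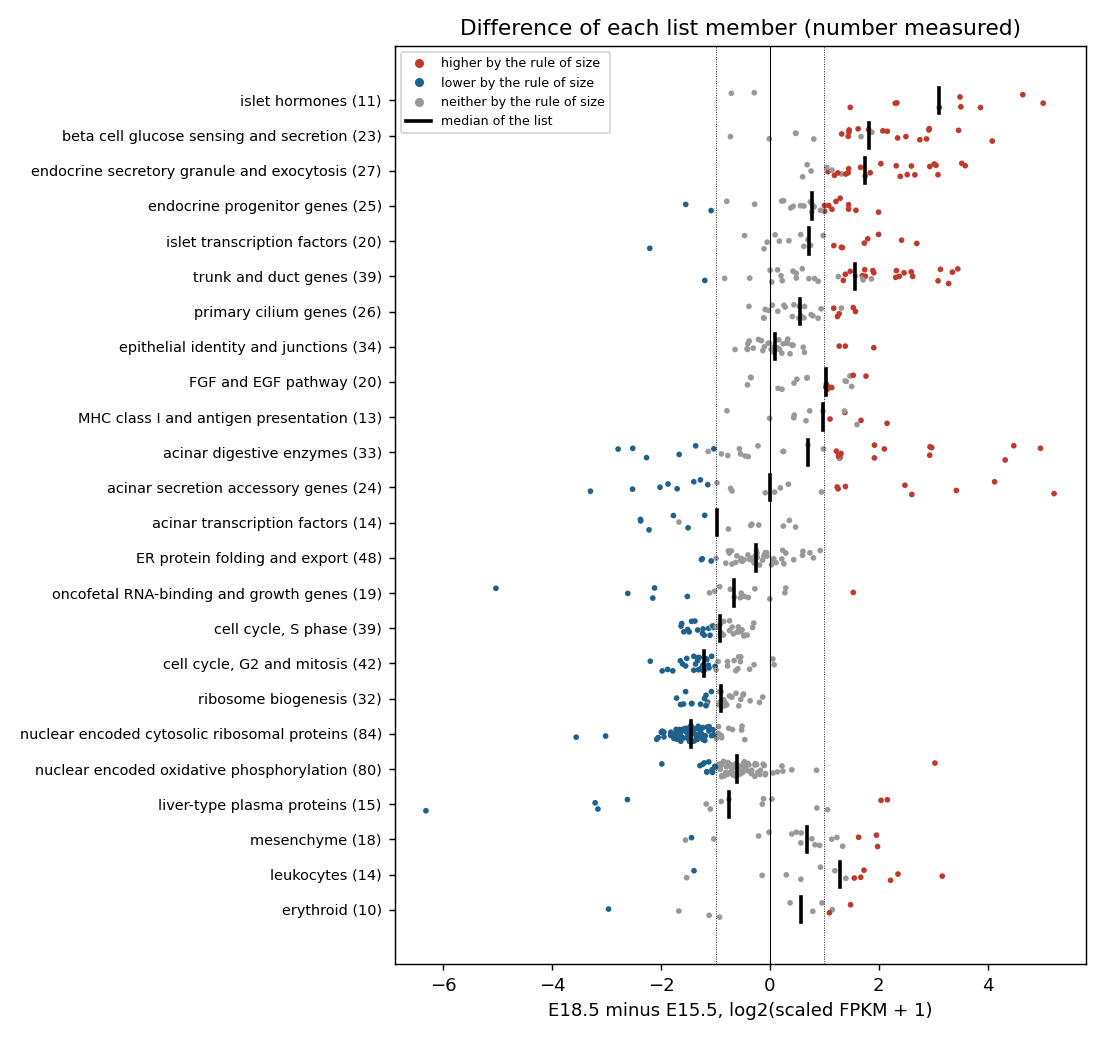
Difference of each measured member of 24 gene lists (E18.5 minus E15.5 on the log2(scaled FPKM + 1) scale; points spread vertically for visibility, list medians as black bars, dotted lines at a difference of 1). Endocrine and duct lists lie to the right, with medians from 0.72 to 3.11, and cell cycle and ribosome lists to the left, with medians from -1.45 to -0.90, while acinar enzymes reach out in both directions.

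Hormone transcripts were the most strongly higher group at E18.5. Of 11 measured islet and gut hormone genes 9 were higher and 0 lower, and the median difference was 3.11 against 0.04 over all members. Together they took 0.696% of all FPKM at E15.5 and 8.02% at E18.5. Glucagon came first in level. Gcg was at 1383 and 15751, after 211 at E11.5 and 2399.6 at E13.5, so that E15.5 was a low point between higher levels. Ins1 was at 149 and 2186, 14.7-fold higher, and Iapp, the amyloid peptide of beta cells, at 438 ± 12.4 and 4938. At E13.5 Ins1 had been at 8.26, Ins2 at 29 and Iapp at 101. Ppy, pancreatic polypeptide, rose from 22.2 ± 1.75 to 580.3 ± 6.47 (limma log2 difference 4.65, SE 0.0582, adjusted p = 2.79e-05), with libraries of 23.4 and 21 against 585 and 576. Pyy, peptide YY, was at 823 ± 38.4 and 4153. Ghrl, the ghrelin of epsilon cells, rose from 42.9 ± 2.46 to 215 ± 5.53 (limma log2 difference 2.30, SE 0.0507, adjusted p = 2.79e-05), and Npy from 15.3 ± 1.66 to 44.3 ± 3.27 (limma adjusted p = 2.20e-04). The gut hormones went the other way without reaching the rule. Gast fell from 20.8 ± 1.21 to 12.3 ± 2.32 (limma adjusted p = 0.00643), and Cck from 14.0 ± 1.19 to 11.3 ± 0.460 (limma adjusted p = 0.0210).

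The sequences before the starts of 2 of these hormone genes show the letters of known control elements (RefSeq, GRCm38.p6, the build that mm10 names). The RefSeq table held 11971 promoters of 9348 member genes, matched by symbol. Each is the 250 bases before the gene's start, 5′ to 3′. In Sst (chr16:23890845-23891094, minus strand) the capitals mark CTAATG, a core bound by PDX1, and TGACGTCA, the cyclic AMP response element. In Gcg (chr2:62483654-62483903, minus strand) they mark CATCTG, an E-box of the kind bound by NEUROD1, and TATAAA, on either strand.
Sst: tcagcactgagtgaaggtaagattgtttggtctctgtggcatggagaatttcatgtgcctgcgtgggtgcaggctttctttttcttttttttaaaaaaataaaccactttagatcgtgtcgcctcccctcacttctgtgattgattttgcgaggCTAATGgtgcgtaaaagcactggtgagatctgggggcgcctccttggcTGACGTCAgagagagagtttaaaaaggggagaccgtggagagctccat
Gcg: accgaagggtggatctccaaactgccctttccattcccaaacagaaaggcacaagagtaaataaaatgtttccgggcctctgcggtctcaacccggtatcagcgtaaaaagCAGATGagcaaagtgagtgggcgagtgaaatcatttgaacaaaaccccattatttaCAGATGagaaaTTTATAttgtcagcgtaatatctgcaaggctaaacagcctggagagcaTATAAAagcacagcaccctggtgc
TGACGTCA, searched on both strands, is in 1.55% of the 32851 promoters of this length in the table, CTAATG in 6.36%, CATCTG in 14.4% and TATAAA in 12.4%. Over the 14 promoters of 10 measured hormone genes in the table, TGACGTCA and CTAATG were each in 1, which is that of Sst. CATCTG was in 4 of the 14 and TATAAA in 3. Gcg holds 2 matches each of CATCTG and TATAAA. A match is a string of letters and shows no binding.

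Machinery of hormone processing and release was higher as a block. In the list of granule and exocytosis genes 21 of 27 measured members were higher and 0 lower (median 1.75), and 18 of the 18 that limma tested rose. Chga, chromogranin A, was at 96.9 and 1126, and Scg2, secretogranin II, at 25.9 ± 1.12 and 323. Both are granule core proteins. Among the prohormone convertases, Pcsk2 rose from 8.09 ± 0.576 to 74.4 ± 1.05 (limma log2 difference 3.05, SE 0.0578, adjusted p = 2.79e-05) and Pcsk1 from 5.73 ± 0.466 to 39.8 ± 1.38 (limma log2 difference 2.60, SE 0.0667, adjusted p = 3.71e-05). Cpe, the carboxypeptidase that trims the cleaved prohormones, was at 142 and 822. The SNARE protein gene Snap25 rose from 0.821 ± 0.127 to 6.48 ± 0.0946 (limma adjusted p = 7.65e-05) after 31.6 at E11.5. Measured neural marker genes summed to 1109 FPKM at E11.5 and 29.98 at E15.5. Whether the E11.5 level of Snap25 came from pancreatic epithelium or other tissue was not tested. Chgb was at 162 and 585, below its 816 at E13.5.

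Genes of beta cell glucose sensing were also higher, 16 of 23 measured members by the rule and 0 lower (median 1.81), and 17 of 17 tested by limma rose. Slc30a8, the zinc transporter of insulin granules, rose from 4.21 ± 0.169 to 87.5 ± 1.5 (limma log2 difference 4.09, SE 0.0471, adjusted p = 2.79e-05), and its E15.5 libraries of 4.33 and 4.09 stood far below the E18.5 libraries of 88.6 and 86.4. G6pc2, an islet glucose-6-phosphatase subunit, rose from 5.71 ± 0.341 to 73.1 ± 0.0180 (limma log2 difference 3.47, SE 0.0523, adjusted p = 2.79e-05). Slc2a2, the glucose transporter GLUT2, rose from 1.56 ± 0.117 to 18.4 ± 0.291 (limma adjusted p = 2.79e-05). The subunits of the ATP-sensitive potassium channel differed in size of change. Abcc8 rose from 11.2 ± 1.02 to 29.5 ± 0.214, a difference of 1.32, and Kcnj11 from 6.40 ± 0.01 to 9.26 ± 0.330, a difference of 0.47 (limma adjusted p = 1.40e-04 and 0.00149). Ucn3, a late beta cell marker, rose from 1.45 ± 0.251 to 11.46 ± 0.113 (limma adjusted p = 6.64e-05). At the low end, Glp1r, the GLP-1 receptor, was at 0.0908 and 2.48, and Pcx, pyruvate carboxylase, at 7.41 and 7.33. Dlk1, an imprinted surface protein of the same list, was at 193 and 116.

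Genes of endocrine progenitors were still on at E18.5, above their E15.5 level. Of 25 measured, 10 were higher and 2 lower (median 0.78), and 15 of 19 tested by limma rose and 4 fell. Taken relative to members of similar exon length, 6 were higher, and with both samples at the same total 0 were lower. Neurog3, the switch to the endocrine fate, ran from 134 at E13.5 through 85.8 ± 1.08 to 200.3 at the later stages. Pax4, which acts in future beta and delta cells, went from 67.0 at E13.5 to 26.5 ± 0.896 at E15.5 and then rose to 66.2 ± 1.77 at E18.5 (limma log2 difference 1.29, SE 0.0446, adjusted p = 5.54e-05). Fev ran from 68.3 through 29.9 ± 2.67 to 61.0 ± 1.88. All 3 of these genes had their low point at E15.5 among the last 3 stages. Neurod1, a target of NEUROG3, was at 23.1 ± 0.901 and 95.2. Insm1 rose from 7.72 ± 0.165 to 25.1 ± 2.16 and Rfx6 from 5.53 ± 0.202 to 16.8 ± 0.0134 (limma adjusted p = 9.80e-05 and 5.84e-05). Dll1, the Notch ligand carried by these progenitors, fell from 5.01 ± 0.412 to 1.06 ± 0.187 (limma log2 difference -1.55, SE 0.103, adjusted p = 2.72e-04). Its E15.5 level lay near the minimum of 5 FPKM that the rule asks.

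Among 20 measured islet transcription factors 8 were higher and 1 lower (median 0.72), and limma found 12 of 16 that rose and 1 that fell. Hhex, a delta cell factor, was at 28.9 and 193, 6.68-fold higher. The mature beta cell factor Mafa rose from 1.16 ± 0.0746 to 6.18 ± 1.15 and stayed low (limma adjusted p = 3.70e-04). Isl1 was at 28.9 ± 1.12 and 103. Pdx1 and Nkx6-1, which mark progenitors as well as beta cells, rose by small amounts. Pdx1 rose from 60.6 ± 4.23 to 77.4 ± 2.25, a difference of 0.35, and Nkx6-1 from 37.8 ± 1.25 to 42.7 ± 0.686, a difference of 0.17 (limma adjusted p = 0.00518 and 0.0181). The exception was Nkx6-2, a progenitor relative of Nkx6-1, which fell from 7.40 ± 0.165 to 0.819 ± 0.119 (limma log2 difference -2.21, SE 0.0802, adjusted p = 6.09e-05).

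The exocrine genes divided. Of 33 measured digestive enzymes 14 were higher and 6 lower at E18.5, with a median difference of 0.70, yet their summed share of FPKM went from 23.8% to 17.3%. The direction of the median depends on gene copies, since among the 19 enzymes with under 20% of 50-base windows shared with other genes 8 were higher and 5 lower, with a median of -0.22. Several of the most abundant enzymes were among the lower ones. Cpa1, carboxypeptidase A1, was at 7935 and 1647, 4.82-fold lower. Ctrb1, chymotrypsinogen B, was at 37973 and 11953. Clps, the cofactor of pancreatic lipase, was at 10250.4 and 3978. Spink1, a trypsin inhibitor of the same granules, was at 275 and 39.0. The most abundant transcript of both stages, the lipase-related Pnliprp1, was at 47607 and 27830.5, lower by less than the rule asks. Each of these 5 genes had its highest level of the 4 stages at E15.5.

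Several of the enzymes that were higher had been near 0 at E13.5. Rnase1 was at 0.0264 there, before 106 ± 10.5 and 3369. Ctrl, a chymotrypsin-like protease, rose from 3.02 ± 0.101 to 88.7 ± 7.92 (limma log2 difference 4.48, SE 0.0738, adjusted p = 2.79e-05). Cela2a, elastase 2A, was at 2.35, 779 and 5989.7 at E13.5, E15.5 and E18.5, and Cpb1, carboxypeptidase B1, at 0.770, 215 and 1650.1. Prss2, a trypsinogen, was at 774 ± 28.7 and 3326, and Cel, carboxyl ester lipase, at 1433 and 3546. Klk1, a tissue kallikrein, was at 26.2 ± 1.33 and 543, but 24.0% of its windows of 50 bases also occur in other genes, so reads could be split between relatives. The amylase copies share more. Amy2a1 was at 505 ± 268 and 1914 with 94.9% of its windows shared, so its level is uncertain, and its E15.5 libraries were apart at 695 and 316.

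**Figure D3:**
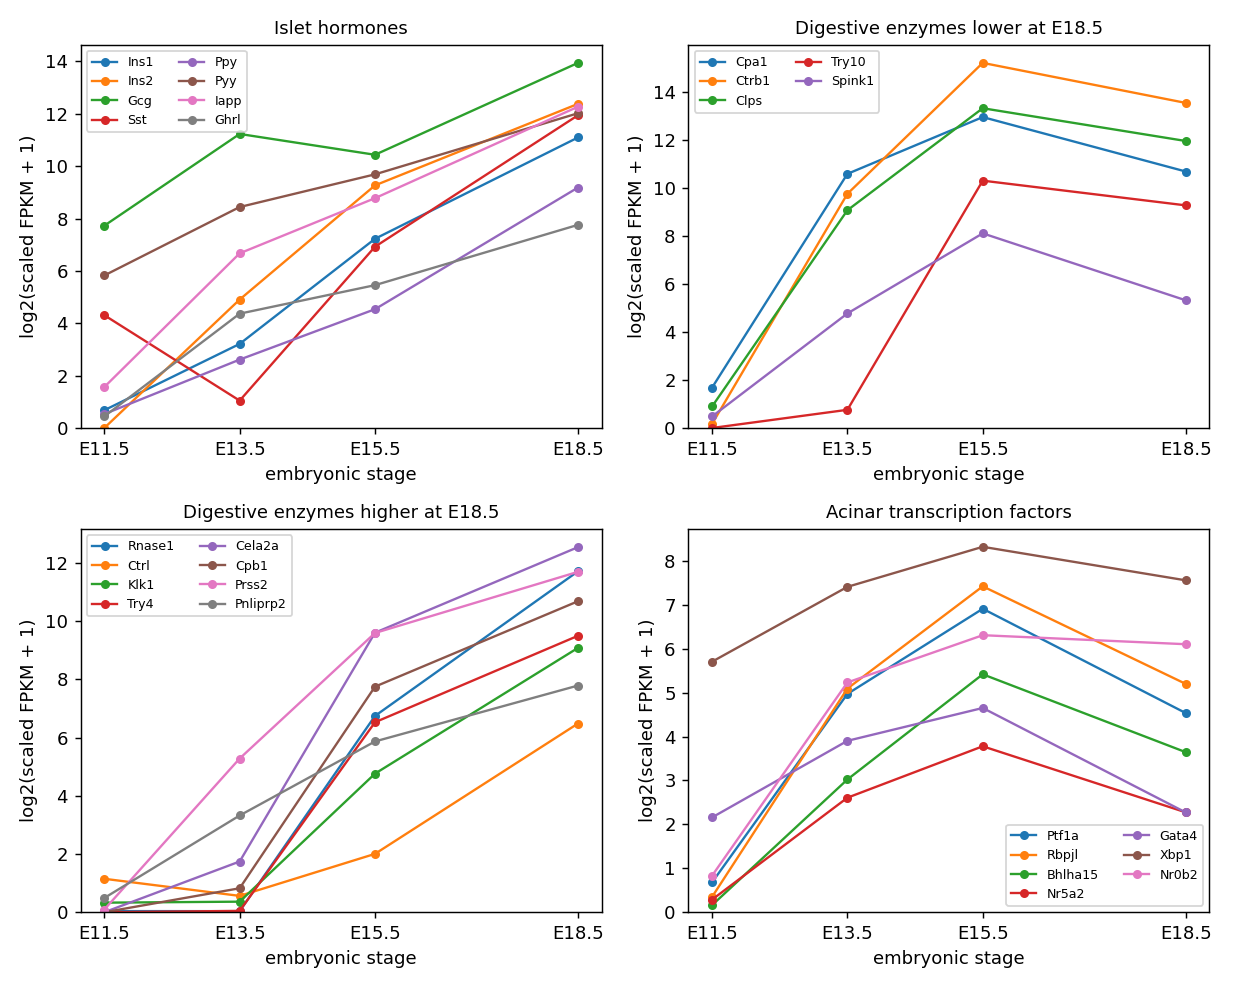
Levels of islet hormones, digestive enzymes of each direction and acinar transcription factors at the 4 stages, as log2(scaled FPKM + 1), 1 sample per stage. Enzymes lower at E18.5 and acinar factors peak at E15.5, as Cpa1 at 7935 and Ptf1a at 119, while the other enzymes and hormones drawn reach their highest level at E18.5.

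The transcription factors that drive the acinar programme were lower. Of 14 measured 0 were higher and 6 lower (median -0.98), and of 11 tested by limma 2 rose and 9 fell. Ptf1a (ENSMUSG00000026735, chromosome 2, 19445663 to 19447501) was at 30.4 at E13.5 and fell from 119 ± 0.0133 to 22.2 ± 1.43 (limma log2 difference -2.38, SE 0.0528, adjusted p = 2.79e-05). Its partner Rbpjl was at 170.4 and 35.7 ± 0.190. Bhlha15, also called Mist1, a factor of secretory cell structure, fell from 41.8 ± 1.20 to 11.51 ± 1.19 (limma log2 difference -1.78, SE 0.0771, adjusted p = 8.91e-05). Nr5a2 fell from 12.7 ± 0.00549 to 3.84 ± 0.462 and Gata4 from 24.1 ± 0.385 to 3.83 ± 0.369 (limma adjusted p = 1.50e-04 and 4.42e-05). In all 4 of the genes given here with a limma p-value the libraries of the stages were apart, as with Gata4 libraries of 23.9 and 24.4 at E15.5 against 4.09 and 3.57. The same held for 617 of the 619 lower genes that could be split at both stages, so it does not set these genes apart. Gata6, a close relative of Gata4, was at 11.4 and 16.3, Xbp1, a regulator of secretory capacity, at 319 and 187, and the orphan receptor gene Nr0b2 at 78.2 and 67.7.

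A list of acinar secretion accessory genes, which holds zymogen granule proteins, receptors, transporters and other proteins of acinar cells, was divided, with 8 of 24 measured higher and 8 lower. Zg16, a lectin of the granule membrane, rose from 3.19 ± 0.378 to 155 ± 5.43 (limma log2 difference 5.22, SE 0.0751, adjusted p = 2.79e-05), after 0.130 at E13.5. Gp2, the main granule membrane glycoprotein, rose from 1.27 ± 0.0408 to 23.4 ± 0.906, and Cuzd1, another granule membrane protein, from 0.482 ± 0.0489 to 24.9 ± 0.652 (limma adjusted p = 2.79e-05 for both). Sycn, syncollin, was at 94.7 and 533 ± 3.50. Among the lower ones, P2rx1, an ATP-gated channel, was at 184 and 17.8 ± 0.530, Cckar, the cholecystokinin receptor, at 169 and 45.4 ± 2.43, and Nupr1, a stress-response gene, at 763 and 187. In the Reg family of secreted lectins, Reg3b had 0 reads in either E15.5 library and rose to 62.9 ± 0.837 at E18.5 (limma log2 difference 6.00, SE 0.0517, adjusted p = 2.79e-05). Its level was at least 573-fold higher when E15.5 is set to a total of 3 reads over both libraries. The Reg3b difference was the largest of all members in the higher direction. Reg1 was at 399 ± 24.2 and 1092, while Reg3d was at 11 and 10.1.

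Promoters of the enzymes were read for the E-box CACCTG, of the kind bound by PTF1A, and for TTCCCA, letters of the RBPJ and RBPJL site. CACCTG on either strand was in 9 of 13 promoters of the higher enzymes (69.2%) and in 14 of 27 of all enzymes in the table (51.9%), against 17.2% of all promoters. The enzyme list holds copies of amylase and trypsinogen genes, whose promoters may be alike. Its motif shares may therefore count related sequences more than once, which was not tested. Only 2 of the lower enzymes have an entry there, and 0 of these 2 hold it. The promoters of Ctrl (chr8:105933863-105934112, minus strand), Cpb1 (chr3:20275734-20275983, minus strand) and Cela2a (chr4:141826006-141826255, minus strand) are shown because these genes were among the most strongly higher enzymes with few shared windows. Rnase1 (chr14:51146768-51147017, minus strand), the most strongly higher enzyme, is shown because it holds no CACCTG. Capitals mark both motifs on either strand.
Ctrl: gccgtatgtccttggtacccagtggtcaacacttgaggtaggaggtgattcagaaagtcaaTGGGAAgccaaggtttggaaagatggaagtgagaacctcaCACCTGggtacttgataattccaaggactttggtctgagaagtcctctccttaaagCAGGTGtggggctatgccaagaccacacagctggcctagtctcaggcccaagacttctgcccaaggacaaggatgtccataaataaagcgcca
Cpb1: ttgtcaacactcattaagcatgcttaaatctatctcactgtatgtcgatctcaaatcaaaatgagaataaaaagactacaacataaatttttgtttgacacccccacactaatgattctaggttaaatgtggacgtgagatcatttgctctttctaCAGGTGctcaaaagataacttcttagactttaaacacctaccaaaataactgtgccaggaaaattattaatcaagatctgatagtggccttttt
Cela2a: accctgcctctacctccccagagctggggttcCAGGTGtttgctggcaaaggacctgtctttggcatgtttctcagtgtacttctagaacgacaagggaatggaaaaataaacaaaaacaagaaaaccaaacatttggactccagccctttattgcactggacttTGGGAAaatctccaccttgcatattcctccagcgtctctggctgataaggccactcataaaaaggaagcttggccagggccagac
Rnase1: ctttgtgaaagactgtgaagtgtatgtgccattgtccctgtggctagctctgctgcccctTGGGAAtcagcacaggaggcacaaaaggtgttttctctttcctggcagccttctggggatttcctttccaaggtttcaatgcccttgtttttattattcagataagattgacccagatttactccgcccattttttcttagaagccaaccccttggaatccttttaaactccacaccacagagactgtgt
TTCCCA was in 13 of 27 promoters of all enzymes (48.1%), in 6 of 13 of the higher enzymes and in 2 of 2 of the lower. The same letters are in 21.6% of all promoters, so single matches are common. Ctrl holds 2 matches of CACCTG, Cpb1 and Cela2a 1 each, and Rnase1 0.

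Duct genes were higher. Of 39 measured trunk and duct genes 19 were higher and 1 lower (median 1.57), 17 of 18 tested by limma rose, and the list took 1.37% of FPKM at E15.5 and 5.75% at E18.5. Spp1 made up 16964 of the 26652 FPKM summed at E18.5, and had been at 4415 at E13.5 before its 1741 at E15.5. Clu, the secreted chaperone clusterin, was at 581 and 3210.0. Krt23, a keratin, was at 9.22 and 111 ± 1.47, Krt7 at 37.2 ± 1.31 and 142, and Krt19, the general duct keratin, at 82.4 and 217. The trunk factor Sox9 was at 48.4 ± 1.53 and 125, level with its 123.1 at E13.5. Aqp1, the water channel of small ducts, rose from 0.404 ± 0.153 to 5.96 ± 0.251 (limma adjusted p = 1.02e-04). Sctr, the secretin receptor, was at 0.0416 and 2.79, and Slc4a4, a bicarbonate cotransporter, at 0.844 and 2.03, both under the level the rule asks. Cldn10, a tight junction protein, was the exception at 340.0 and 148. Cldn2, another claudin outside the list, rose from 0.544 ± 0.122 to 20.7 ± 2.87 (limma adjusted p = 4.47e-05).

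Genes of the primary cilium, an organelle carried by duct cells, were higher in 5 of 26 measured members and lower in 0, and 16 of 23 tested by limma rose. Ift57 rose from 8.92 ± 0.431 to 27.7 ± 1.63 (limma log2 difference 1.53, SE 0.0638, adjusted p = 8.16e-05), and Dync2li1 was at 27.1 and 82.4. General epithelial genes differed by less. Of 34 measured, 3 were higher and 0 lower, with a median of 0.09, a value that turns to -0.04 relative to members of similar exon length. Epcam was at 686 and 858, and Cdh1, E-cadherin, at 82.4 and 75.2. The 3 higher ones were Krt7, Krt19 and Ehf.

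Cell division genes were lower at E18.5 as a group. Of 42 measured genes of G2 and mitosis 0 were higher and 27 lower (median -1.21), and 33 of 34 tested by limma fell. Of 39 S phase genes 0 were higher and 15 lower (median -0.91), and 34 of 34 tested fell. Ube2c, the ubiquitin-conjugating enzyme of the anaphase-promoting complex, was at 273 and 58.7 ± 0.443. Birc5, survivin, was at 120.3 and 29.7 ± 0.991. Top2a, topoisomerase II, fell from 29.4 ± 0.168 to 7.81 ± 0.197 (limma log2 difference -1.78, SE 0.0455, adjusted p = 3.66e-05). Tyms, thymidylate synthase, was at 64.7 ± 0.212 and 20.4 ± 0.811, and Rrm2, a ribonucleotide reductase subunit, at 121 and 39.7 ± 1.73. Kif20a and Prc1, which act in cytokinesis, were the only 2 members of the mitosis list with a difference above 0, at 9.16 and 9.73, and 5.47 and 5.72. Cell cycle inhibitors and D cyclins moved less. Ccnd1, cyclin D1, rose from 15.1 ± 0.161 to 41.1 ± 0.910, and Cdkn2b, a CDK4 inhibitor, from 1.20 ± 0.598 to 5.78 ± 0.855 (limma adjusted p = 4.46e-05 and 0.00211). Cdkn1a was at 97.6 and 116, and Cdkn1c at 112 and 138.

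The promoters of the mitosis genes were read for the CCAAT box, bound by NF-Y, and for TTTGAA, a cell cycle homology region bound by the DREAM complex that silences these genes in resting cells. CCAAT on either strand was in 22 of 24 promoters of the lower mitosis genes (91.7%), against 33.9% of all promoters, 35.6% of promoters of members and 40.8% of those of lower members. At least 2 CCAAT boxes were in 17 of the 24 (70.8%), against 10.1% of all promoters. TTTGAA was in 11 of the 24 (45.8%), against 15.99% of all. Over the whole mitosis list 32 of 40 promoters held CCAAT and 17 of 40 TTTGAA. Of the 37 promoters of the S phase list 21 held CCAAT (56.8%), and of the 18 of its lower genes 7 did (38.9%). Ube2c (chr2:164769679-164769928, plus strand), the most strongly lower of the list, and Cdc20 (chr4:118437344-118437593, minus strand), an activator of the anaphase-promoting complex, are shown with both motifs in capitals on either strand. Birc5 (chr11:117848987-117849236, plus strand), the next most strongly lower of the list, is shown as an exception without a match of either.
Ube2c: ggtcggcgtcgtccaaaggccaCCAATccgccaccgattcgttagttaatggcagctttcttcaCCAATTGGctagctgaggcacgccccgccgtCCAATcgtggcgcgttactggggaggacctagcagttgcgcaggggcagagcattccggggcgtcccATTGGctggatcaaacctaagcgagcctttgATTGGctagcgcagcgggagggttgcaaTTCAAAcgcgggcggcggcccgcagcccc
Cdc20: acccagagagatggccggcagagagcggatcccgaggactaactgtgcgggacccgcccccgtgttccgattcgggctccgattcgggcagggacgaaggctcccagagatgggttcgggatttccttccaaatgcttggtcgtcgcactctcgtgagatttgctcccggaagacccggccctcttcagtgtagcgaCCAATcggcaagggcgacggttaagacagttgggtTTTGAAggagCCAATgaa
Birc5: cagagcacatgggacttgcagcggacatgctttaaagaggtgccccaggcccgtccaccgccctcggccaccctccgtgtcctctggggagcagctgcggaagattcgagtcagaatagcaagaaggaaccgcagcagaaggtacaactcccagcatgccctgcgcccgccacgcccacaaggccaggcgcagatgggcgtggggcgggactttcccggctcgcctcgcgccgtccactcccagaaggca
Ube2c holds 6 CCAAT matches, of which a pair on opposite strands overlaps, and 1 TTTGAA match. Cdc20 holds 2 and 1, and its level was 185 and 78.6 ± 4.44.

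**Figure D4:**
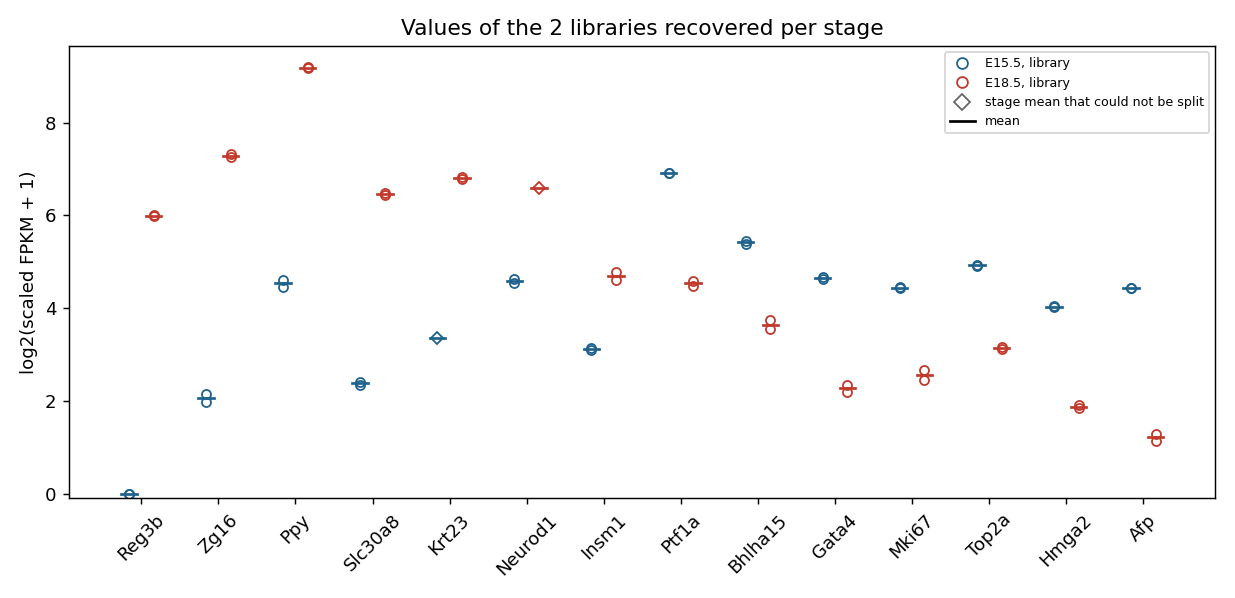
Values of the recovered libraries for 14 genes, as log2(scaled FPKM + 1), with E15.5 in blue, E18.5 in red, a bar at the mean and diamonds for stage means that could not be split. For every gene drawn, the stages lie farther apart than the libraries of a stage, as for Mki67 at 20.7 and 4.91 with SDs of 0.129 and 0.614. All genes drawn had passed the rule of size. Of such genes split at both stages, 761 of 761 higher and 617 of 619 lower ones had libraries that did not overlap.

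Ribosomal protein transcripts were lower as a body. Of 84 measured cytosolic ribosomal protein genes 0 were higher and 74 lower, with a median difference of -1.45, and 43 of 44 tested by limma fell. Their share of FPKM went from 4.99% to 2.14%, after 2.36% at E11.5 and 4.23% at E13.5. Their summed scaled FPKM was 7265, 14322, 26102 and 9909 over the 4 stages. E15.5 was thus the highest stage, and the E18.5 sum lay above that of E11.5. Many share sequence with pseudogenes, and among the 40 with under 20% of windows shared 34 were lower, with a median of -1.40. Rps2 was at 1207 and 342 (43.0% of windows shared). Rpl7a, with 37.9% shared, stood at 50.6 ± 26.3 and 3.38 ± 0.383, and its E15.5 libraries of 32.0 and 69.2 differ more than 2-fold. Among all processed pseudogenes, of whatever parent gene, 117 of 729 measured were lower, 11 higher and 601 neither. With protein-coding genes only, 867 were higher and 638 lower.

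Ribosomal protein genes are short, and short genes as a class differed between the samples. Among other protein-coding members at 5 FPKM or more, the median difference was -0.35 for the 227 with at most 1000 bases of exon, 0.01 for 1000 to 2000 bases, 0.13 for 2000 to 3000, 0.11 for 3000 to 5000 and -0.04 beyond. Within the same length classes the ribosomal protein medians were -1.49, -1.53, -1.39, -1.39 and -1.43. Relative to members of similar length the median of the list was -1.53.

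**Figure D5:**
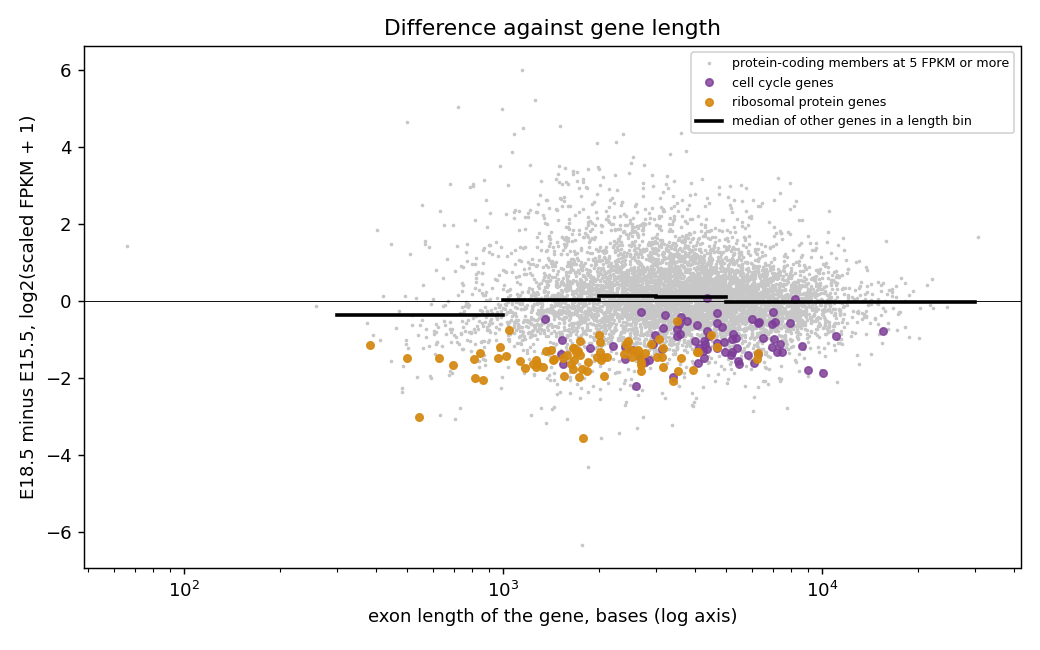
Difference between E18.5 and E15.5 (log2(scaled FPKM + 1) scale) against exon length in bases on a log axis, for protein-coding members at 5 FPKM or more. Ribosomal protein genes lie near -1.45 at all lengths, cell cycle genes lie below 0 apart from Kif20a and Prc1, and the median of other genes runs from -0.35 in the shortest class to 0.13.

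Genes that build ribosomes were lower too, 12 of 32 measured with 0 higher (median -0.90), and 24 of 26 tested by limma fell. Myc, a driver of their transcription, fell from 50.3 ± 1.73 to 17.9 ± 0.794 (limma log2 difference -1.44, SE 0.0516, adjusted p = 5.87e-05). Fbl, the rRNA methyltransferase fibrillarin, fell from 92.3 ± 0.797 to 37.5 ± 0.584 (limma adjusted p = 3.84e-05), and Ncl, nucleolin, was at 112 and 40.6 ± 1.1. Growth genes of the fetus followed. H19, an imprinted noncoding RNA (ENSMUSG00000000031, chromosome 7, 142575529 to 142578143), was at 1238 and 36.8 ± 0.776, 33.7-fold lower, and Mest, also imprinted, at 145 and 22.9 ± 0.680. Hmga2, a chromatin protein of fetal growth, fell from 15.4 ± 0.109 to 2.68 ± 0.0971 (limma log2 difference -2.15, SE 0.0545, adjusted p = 3.61e-05), and Hmga1 was at 177 and 39.8 ± 0.963. The list of 19 fetal growth genes held 5 lower and 1 higher, the latter being Mycn, which rose from 2.48 ± 0.573 to 9.05 ± 0.540 (limma adjusted p = 5.34e-04). Among other imprinted genes, Grb10 was at 33.8 and 33.8 and Meg3 at 17.7 and 21.6.

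Genes of plasma proteins otherwise known from liver were divided. Of 15 measured, 4 were lower, 2 higher and 9 neither (median -0.75). Among the 12 with under 20% of windows shared 2 were lower and 2 higher, with a median of -0.13. Serpina6, which binds glucocorticoids in plasma, ran through 107, 1351, 3347 and 40.9 ± 1.40 over the 4 stages, and its difference of -6.32 was the largest in the lower direction. Afp, alpha-fetoprotein, fell from 20.6 ± 0.189 to 1.33 ± 0.176 (limma log2 difference -3.21, SE 0.0730, adjusted p = 2.91e-05), and Serpina1c, an alpha-1-antitrypsin copy, stood at 30.3 ± 1.17 and 2.49 ± 0.763. Outside the list, Gc, the vitamin D binding protein, was at 473 and 22.9 ± 0.973, Vtn, vitronectin, at 271 and 21.9 ± 0.0725, and F10, coagulation factor X, fell from 10.7 ± 0.228 to 0.443 ± 0.0217 (limma adjusted p = 2.79e-05). Alb, albumin, the defining product of hepatocytes, was at 2.38 and 5.15, and Ttr, transthyretin, which islets also make, at 533 and 491. The 2 higher genes were Rbp4, retinol-binding protein, at 365 and 1630.1, and Apoe at 50.3 ± 2.74 and 210.2. A list of genes linked to glucocorticoids, which also holds Serpina6 and the receptor gene Nr3c1, was divided, with 3 of 16 measured higher and 4 lower. The lower ones were Serpina6, Nr3c1 and the metallothioneins Mt1 and Mt2. Dusp1 was at 28.7 and 117, and the metallothionein Mt1 at 394 and 158 ± 6.28. The receptor gene Nr3c1 was at 20.4 and 9.5, a difference of -1.03 that becomes -0.87 with samples at the same total.

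Secretory and metabolic lists differed in the share past the rule of size, which took 7.03% of all members as higher and 6.2% as lower. Lower genes made up 6.25% of the endoplasmic reticulum list below and 15% of the nuclear oxidative phosphorylation list. Higher genes made up 18.8% of the glycolysis list. Of 48 genes that fold and export proteins in the endoplasmic reticulum, 0 were higher and 3 lower (median -0.26), and 15 of 23 tested by limma fell and 4 rose, with the chaperone Hspa5 at 588 and 796. Of 80 measured nuclear genes of oxidative phosphorylation 1 was higher and 12 lower (median -0.61), and with samples at the same total 2 and 4 were. In the same list 73 of 80 had a difference below 0, and 45 of 57 tested by limma fell and 4 rose. The higher one in the main scaling was Cox6a2, the muscle form of a cytochrome oxidase subunit, with 0 reads at E15.5 and 7.18 ± 1.08 at E18.5, at least 38.9-fold higher. In glycolysis 3 of 16 measured were higher and 0 lower. By limma 5 of 9 tested rose and 3 fell, against 38.3% and 31.9% of all tested members. Aldoc, aldolase C, rose from 9.44 ± 0.129 to 98.1 ± 0.240 (limma log2 difference 3.25, SE 0.0378, adjusted p = 2.79e-05), while Ldha, lactate dehydrogenase A, was at 640.4 and 405. Of 25 cholesterol and fatty acid synthesis genes 1 passed the rule, Msmo1 at 13.1 and 34.6, and 4 did with samples at the same total. By limma 16 of 21 tested rose and 2 fell.

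Signalling genes showed mixed and mostly small differences. In the Notch pathway, which holds trunk cells in the progenitor state, 0 of 17 measured were higher and 3 lower. Notch1 fell from 5.35 ± 0.0891 to 1.43 ± 0.116 (limma log2 difference -1.39, SE 0.0738, adjusted p = 1.45e-04) and Lfng, a Notch-modifying glycosyltransferase, from 6.48 ± 0.258 to 2.21 ± 0.184 (limma adjusted p = 2.13e-04), and Hes1, its best known target, was at 153 and 85.4 ± 3.68. With both samples at the same total without enzymes, hormones, globins and mitochondrial genes, 1 of the 3 was lower. The E15.5 levels of Notch1 and Dll1 lay near the minimum of 5 FPKM that the rule asks, so scaling can take them under it. In the TGF-beta and BMP pathway 0 of 25 were higher and 4 lower. The BMP targets Id1 and Id3 fell from 188 ± 4.59 to 50.8 ± 1.45 and from 158 ± 3.89 to 39.0 ± 0.407 (limma adjusted p = 2.79e-05 for both), while Id2 was at 331 and 374. In the Wnt pathway 1 of 22 was higher and 1 lower. The ligand gene Wnt4 rose from 1.36 ± 0.166 to 20.2 ± 0.0538 (limma log2 difference 3.17, SE 0.0705, adjusted p = 2.79e-05), and the secreted inhibitor Notum fell from 9.18 ± 0.908 to 0.567 ± 0.204 (limma log2 difference -2.70, SE 0.124, adjusted p = 1.00e-04). In the FGF and EGF pathway 7 of 20 were higher and 0 lower (median 1.03), and 3 relative to members of similar exon length. The receptor genes Fgfr2 and Fgfr3 rose from 3.29 ± 0.135 to 11.4 ± 0.407 and from 2.21 ± 0.0137 to 9.92 ± 0.00577 (limma adjusted p = 7.12e-05 and 4.76e-05). Their feedback phosphatase Dusp6 rose from 9.01 ± 0.325 to 19.8 ± 0.0933 (limma adjusted p = 1.04e-04).

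Genes of MHC class I antigen presentation were higher in 4 of 13 measured members and lower in 0 (median 0.98), and 7 of 8 tested by limma rose. H2-D1, a class I heavy chain, was at 65.2 ± 0.525 and 171, and H2-K1 at 58.4 and 116, just under the rule. B2m, the light chain, rose from 83.6 ± 6.42 to 114 ± 1.80 (limma adjusted p = 0.00232).

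Markers of other tissues were measured at both stages, with Hba-a1, Hbb-bs, Sparc and C1qa above 100 FPKM at E15.5 or E18.5, and their part in the results above was not tested. The 26 mesenchyme genes summed to 158.2 at E15.5 and 369.4 at E18.5, of which Sparc made up 83.3 ± 0.463 and 259.6, with 3 of 18 measured members higher and 1 lower. Dcn, decorin, rose from 3.03 ± 0.145 to 14.7 ± 0.784 (limma adjusted p = 5.14e-05), Pdgfrb fell from 2.96 ± 0.108 to 0.349 ± 0.0112 (limma adjusted p = 2.11e-04), and Nkx2-5 was listed at 0 at E18.5. Of 18 endothelial genes 1, Egfl7, reached 1 FPKM, 6 were at 0 at each stage, and the sums were 20.0 and 11.1. Leukocyte genes summed to 209.1 and 174.8, with 6 of 14 measured higher and 1 lower. C1qa made up 176 ± 1.32 and 66.4 ± 3.83 of these sums, and without it they were 32.8 and 108, 3.30-fold higher at E18.5. Cd79a, a B cell receptor chain, rose from 0.305 ± 0.171 to 10.7 ± 0.642 (limma adjusted p = 6.09e-05). Ptprc, the common leukocyte antigen CD45, was at 0.0106 and 0.0277. Erythroid genes summed to 296.8 and 641.3, with 2 of 10 measured higher and 1 lower (median 0.58). Both higher genes are globins that share sequence, and among the 6 members with under 20% of windows shared 0 were higher and 1 lower, with a median of -1.02. The embryonic globin Hbb-y fell from 6.81 ± 0.424 to 0 reads (limma adjusted p = 4.46e-05), at least 36.8-fold lower against a total of 3 reads over both libraries. The adult globin Hbb-bs rose from 101 ± 4.47 to 285 ± 6.26 (limma adjusted p = 4.15e-05), with 53.2% of its windows shared. Neural genes summed to 31.7 and 81.1, with 4 of 8 measured higher and 1 lower, among them Tubb3, a tubulin that endocrine cells can also carry, at 7.22 and 33.6. Mesothelial genes summed to 1.011 and 3.59, and gut and stomach genes to 9.04 and 17.9, with Sox2, Gkn1, Gkn2, Muc5ac and Tff1 at 0 at both stages. Phox2a was at 0 at E18.5.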

How the data were processed

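Total RNA was sequenced from 1 sample per stage. HISAT2 2.0.5 and the mm10 build are named per the submitters' processing notes, with no counting tool or annotation given in the sources used here. From these steps the authors deposited 1 averaged FPKM value per Ensembl gene and stage, per the file headers. For scaling, a median-of-ratios factor was taken from 9884 genes at 1 FPKM or more in all 4 stages, and values were divided by it (1.03 at E15.5, 0.962 at E18.5). Symbols, positions and exon lengths came from GENCODE M21, in which 54495 IDs have a symbol.

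A deposited mean times exon length is a sum of whole reads of 2 libraries, each worth a constant found from low genes. This split 93.5% of attempted genes at E15.5 and 93.7% at E18.5 (sums matched within 0.75 of the last printed place), and these reads were used to give each library's FPKM. Their log2(scaled FPKM + 1) values went into limma 3.58.1 (R 4.3.3; trended variance) as an alternative to the rule of size, which has no test. In simulated data for E18.5 against E15.5 over 11489 genes, of 50 genes each, the rule found 50 of those raised 2.5-fold, 41 of those lowered 2.5-fold and 0 of those raised 1.5-fold, while limma found 50, 50 and 25. Of 11289 unchanged genes the rule called 2 and limma 26. The simulated libraries held counting error and a small added spread, with no difference in embryos, sex or composition between the stages. These counts are thus no rate of false calls for the real samples. Sharing is the percentage of 50-base windows found in other genes. Promoters are the 250 bases before RefSeq starts. Other scalings, pseudocounts, minimum levels, folds and gene types were tried.

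The members and the 44 gene lists were chosen with earlier results of these data known. Named genes were the 15 with the largest difference in each direction (past the rule, at 10 FPKM or more, without predicted genes, pseudogenes, histones and mitochondrial genes), up to 4 members per list and direction past the rule, the 3 highest of each list, the 6 markers and the 5 most abundant genes of each stage. Not every such gene is described, some are not reported here, and other list members were named after their values were seen.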

Additional observations from a re-analysis of the deposited data

How the results depend on the processing

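The counts of 933 higher and 823 lower genes depend on the threshold. With a pseudocount of 5 they were 496 and 495, with a minimum of 20 FPKM for the higher value 388 and 497, at 1.5-fold 1765 and 1695, and at 4-fold 230 and 100. With that minimum at 1 FPKM 1423 were higher and 1109 lower, and over all gene IDs 1426 and 1109. Scaling moved the balance. With samples at the same total, 1199 were higher and 582 lower, and without enzymes, hormones, globins and mitochondrial genes in that total 1207 and 572 (67.8% higher), which moved the median of all members to 0.19. Deposited FPKM without scaling gave 815 and 952 (46.1% higher). Limma on the recovered libraries called 1179 and 852 at 2-fold or more, and 1082 and 774 of 10689 tested on the libraries of all 4 stages, an alternative chosen after seeing the data, as was the difference relative to members of similar exon length (798 and 855). Of the 240 genes taken by the naming rule, 0 of those past the rule of size changed direction with samples at the same total, in either form, with a pseudocount of 0.1 or with the length-relative difference. This was bound to be so for the pseudocount, which cannot change a sign. It was also bound to be so for the same totals, which moved the median of all members only to 0.18 and 0.19. In these settings, in the same order, 10, 12, 0 and 11 genes no longer passed the rule of size. Among those not past it, 6, 6, 0 and 4 changed sign, all with differences of at most 0.176 in size, Reg3d and Id2 among them. Small medians (Notch, TGF-beta and BMP, acinar accessory, epithelial, fatty acid oxidation, immediate early and polycomb lists) changed sign with a scaling or the length-relative difference. With only members under 20% of windows shared, also chosen after seeing the data, the medians of the enzyme, accessory and erythroid lists changed sign. The causes were not tested. No paired analysis was possible because the labels give 1 sample per stage. Replicates could not be left out for the same reason. Abundant genes had no test because their means could not be split, and without samples of separate embryos no value here measures variation between embryos.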

Other observations

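Several genes outside the lists differed by as much as the islet and acinar genes. Sult1a1, Scara3, Sod3, Ces1d, Aldh1b1, Slit3 and Upk1a were among the 15 largest differences of their direction, and the other genes below were chosen after their values were seen. Sult1a1, a phenol sulfotransferase, rose from 0.410 ± 0.0755 to 31.7 ± 2.52 (limma log2 difference 4.53, SE 0.0822, adjusted p = 2.79e-05), and Scara3, a scavenger receptor, from 2.03 ± 0.157 to 60.8 ± 1.44 (limma log2 difference 4.35, SE 0.0585, adjusted p = 2.79e-05). Sod3, the extracellular superoxide dismutase, rose from 0.700 ± 0.197 to 24.3 ± 0.0214 (limma adjusted p = 3.24e-05), and Ces1d, a carboxylesterase, was at 4.53 ± 0.0869 and 110.3. Igfbp7 rose from 24.4 ± 0.833 to 290.2 ± 12.2 and Ppp1r1b, a phosphatase inhibitor, from 8.78 ± 0.857 to 93.2 ± 1.04 (limma adjusted p = 2.79e-05 for both). Gas6, a ligand of TAM receptors, was at 10.9 ± 0.113 and 157, Tm4sf4 at 88.5 ± 2.42 and 756, and Gpx3, a secreted glutathione peroxidase, at 70.2 ± 0.705 and 552. The islet calcium-binding protein gene Scgn was at 59.3 ± 0.344 and 333. Cltrn, an amino acid transporter partner of islets, was at 77.2 ± 2.77 and 506.

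In the lower direction, Aldh1b1, a mitochondrial aldehyde dehydrogenase of pancreatic progenitors, was at 306 and 27.4 ± 0.235. Slit3, a guidance cue, fell from 16.6 ± 1.45 to 1.43 ± 0.168, and Upk1a, a uroplakin, from 13.7 ± 0.149 to 1.1 ± 0.00363 (limma adjusted p = 4.71e-05 and 2.79e-05). Among abundant enzyme genes, 3 were lower, Gstm1, a glutathione transferase, at 1975 and 367, Phgdh, the first enzyme of serine synthesis, at 685 and 150.3, and Gamt, which completes creatine synthesis, at 466 and 68.1 ± 1.87. Psat1, the next enzyme of serine synthesis, fell from 34.7 ± 0.993 to 25.4 ± 0.357 (limma adjusted p = 8.74e-04), a difference of -0.44 against -2.18 for Phgdh.

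The complement C1q chains, made by macrophages and encoded side by side, went in opposite directions. C1qa fell from 176 ± 1.32 to 66.4 ± 3.83 (limma log2 difference -1.40, SE 0.0480, adjusted p = 5.46e-05) and C1qb rose from 1.17 ± 0.443 to 10.1 ± 0.322 (limma log2 difference 2.37, SE 0.150, adjusted p = 2.38e-04), and C1qc rose from 0.948 ± 0.422 to 5.19 ± 0.869 (limma adjusted p = 0.00131). A 57-base miRNA annotation, Gm23935, was among the most abundant IDs at E15.5, at 9391 and 2022 ± 53.4, and all of its 50-base windows are shared with other genes, so its level is uncertain. Of 86 measured snoRNA genes 11 were lower and 0 higher, and of 16 mitochondrial tRNA genes 5 were lower and 0 higher. Xist, the X-inactivation RNA, fell from 12.4 ± 0.339 to 2.5 ± 0.0594 (limma adjusted p = 4.46e-05). Y-linked reads went the other way, from 387 and 381 in the E15.5 libraries to 1598 and 1665 in the E18.5 libraries. The part of embryo sex in the Xist difference was not tested.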
